A study of Mus musculus with 36 samples.

Results

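After 1 h of membrane depolarisation with KCl, the RNA of cultured mouse cortical neurons (CNs) was set against that of CNs kept silent. The comparison rests on 2 KCl libraries, named A and B, and 6 control libraries out of 18 RNA-seq libraries in the study. It covered 16209 of the 26709 genes listed, namely those with a mean of at least 10 normalised read counts over the 18 libraries. CNs came from the pooled cortices of CD-1 embryos at embryonic day 15 and were grown for 7 days. All cultures were silenced for 2 h with 100 µM AP-5, which blocks NMDA receptors, and 1 µM TTX, which blocks voltage-gated sodium channels. The KCl group then received 55 mM KCl for 1 h, added to the medium as a buffer. The 6 controls, A and B for 1, 6 and 10 h, stayed in AP-5 and TTX for 3, 8 and 12 h in all and are treated as 1 group. KCl for 6 and 10 h and BDNF at 10 ng/ml for 1 h, each with 2 libraries and the same silencing beforehand, are used for comparison. BDNF is a secreted growth factor that acts through the TrkB receptor.

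Raised extracellular potassium depolarises neurons and opens voltage-gated calcium channels. Calcium entry activates kinases and the phosphatase calcineurin, which act on transcription factors already present, such as CREB, SRF and MEF2. These switch on immediate early genes, many of which encode transcription factors, and later genes for synaptic and secreted proteins.

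With KCl at 1 h, 4298 genes were higher than in the controls, 26.5% of the genes tested, and 4565 were lower, 28.2% (limma, adjusted p below 0.1, two-sided). The change was at least 2-fold for 482 of the higher and 898 of the lower genes. These counts depend on the filter: they were 1611 and 1338 with no filter on low values, where rises outnumbered falls, and 185 and 604 with a mean of at least 50. The median log2 difference over all genes tested was 0.00, and fold changes here are on the log2(normalised count + 1) scale, which understates those of weakly expressed genes. The 2 KCl values lay above all 6 controls for 4274 genes and below all 6 for 4411. These shares are large, so the counts for each gene list below have to be read against 26.5% and 28.2%.

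The 8 libraries held 9.75 to 36.7 M reads, with 10.6 M in KCl A, 11.9 M in KCl B and 36.7 M in control 1 h A. Normalised counts summed to 13.0 M in KCl A, 12.7 M in KCl B and 11.7 to 12.1 M in the controls (exact permutation p = 0.0357, two-sided, the smallest that 28 arrangements can give). All 8 neuronal marker genes were expressed. Summed over the list, these markers were at 72786 to 81583 normalised counts in the controls and 79334 to 85978 with KCl, and 6 were called higher and 1, Tubb3, lower. Markers of GABAergic neurons summed to 11644 to 13515 in the controls and 14583 to 16360 with KCl, with 5 of 7 called higher. Those of the oligodendrocyte lineage summed to 6161 to 6620 and 4633 to 5152, with 3 of 8 called lower, including Sox10, a factor of that lineage, which fell from 117 to 21 normalised counts on average. Microglial markers stayed at 182 to 325 over their 9 genes in all 8 libraries, and those of endothelial cells summed to 276 to 1233 in the controls and 416 to 933 with KCl. Of 3 endothelial markers tested Pecam1 was called higher, and Cldn5 was under 1 in all 8 libraries. In bulk RNA, fewer cells of a type and less RNA per cell cannot be told apart, and the part of these cells in the results below was not tested.

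The 3 largest rises were those of genes for transcription factors known to respond within minutes, Fosb, Fos and Nr4a1. Fosb (chr7:19302696-19310051), which encodes a partner of Jun proteins in AP-1, stood at 5421 and 6088 normalised counts in KCl A and B against 4.93 to 10.8 (median 6.40) in the controls. Fos, its relative, stood at 5742 and 5274 against 25.1 to 43.3 (median 33.3). Both KCl values were far above every control for each gene. The log2 difference was 9.52 ± 0.22 (SE) for Fosb (adjusted p = 8.7e-19) and 7.30 ± 0.15 for Fos (adjusted p = 9.6e-19).

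**Figure D1:**
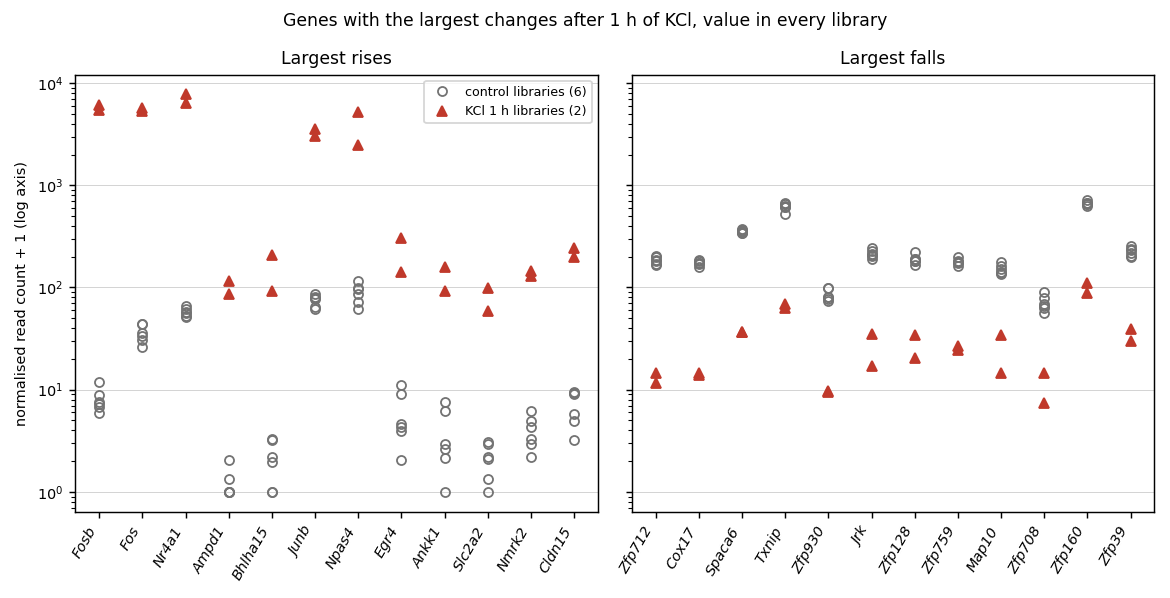
Normalised read count plus 1 (log axis) of the 12 protein-coding genes with the largest rise and the 12 with the largest fall after 1 h of KCl, among genes with a mean of 50 or more in their higher group and no overlap between groups. Open circles are the 6 control libraries and triangles the 2 KCl libraries; the groups do not overlap, as the choice required.

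In the plot of the largest changes, immediate early genes such as Fos and Nr4a1 stand beside genes known from other tissues, such as Ampd1 and Bhlha15. On the side of the falls, 7 of the 12 genes are zinc-finger genes of the Zfp series. The genes were chosen for their change, so that they differ is no finding. What they share otherwise is described with their groups.

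Of 12 AP-1 and small Maf genes tested, 10 rose and 0 fell, with a median log2 difference of 1.28. By edgeR's test the same list also gave 0 falls, and at an unadjusted p under 0.05 there were 0. Junb, another AP-1 member, stood at 3586 and 3033 normalised counts with KCl and 60.1 to 84.6 (median 77.4) in the controls (log2 difference 5.47 ± 0.13). Maff, a small Maf protein that pairs with other leucine-zipper factors, stood at 653 and 540.0 against 21.5 to 38.9 (median 33.2). Jun, the main partner of Fos, was already at 1096 to 1255 (median 1193) in silent CNs and rose only to 1466 and 1526, a 1.27-fold change. Fosl1 was at 87.7 and 74.8 with KCl and 57.7 to 77.9 (median 68.7) in the controls, where the groups overlapped (adjusted p = 0.17).

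The 3 Nr4a genes, which encode orphan nuclear receptors, all rose. Nr4a1 stood at 7748 and 6378 normalised counts against 50.9 to 64.4 (median 55.9) in the controls, Nr4a2 at 5703 and 4874 against 202 to 228 (median 209), and Nr4a3 at 10756 and 7814 against 908 to 1054 (median 1002). No KCl value came near the controls, and Nr4a3, which started highest, had the smallest log2 difference (3.20 ± 0.08, against 4.63 ± 0.08 for Nr4a2 and 6.94 ± 0.11 for Nr4a1). Per length of transcript their mean levels with KCl were 455, 295 and 350.3 TPM (a unit scaled by transcript length), in the order Nr4a1, Nr4a2, Nr4a3.

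The Egr family of zinc-finger factors and their Nab corepressors moved less evenly: 5 of 6 rose, and Nab2 fell. Egr1 stood at 1590.4 and 1838 normalised counts with KCl and 194 to 247 (median 225) in the controls. Egr2 stood at 253 and 209 against 8.30 to 15.6 (median 11.5), and Egr4 at 305 and 140.1 against 1.04 to 10.2 (median 3.45). All KCl values were above all controls, although the 2 libraries differed 2.18-fold for Egr4. Nab2, which binds Egr proteins and limits them, stood at 60.5 and 39.6 against 61.7 to 85.0 (median 67.7). Its log2 difference was -0.51 ± 0.16 (adjusted p = 0.013). Without KCl B the Nab2 difference was -0.21 and was no longer called (adjusted p = 0.42). The Nab2 locus overlaps Nemp1 on the other strand, whose values moved in the same direction, and counting is not stated to use strand, so reads of these genes cannot be told apart where they overlap.

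Among 33 other rapidly regulated nuclear genes, 22 rose and 3 fell, with a median log2 difference of 0.58. Npas4, a factor of the bHLH-PAS family known to respond to calcium entry, stood at 5258 and 2487 normalised counts against 60.1 to 114 (median 90.5). The KCl libraries differed 2.11-fold from each other, and the lower one was still 21.9-fold above the highest control. Ier2 stood at 1142 and 1253 against 134 to 156 (median 145), and Nfil3, a leucine-zipper repressor, at 3010.4 and 2201 against 371 to 439 (median 431). Cebpa and Mycn fell, with log2 differences of -1.40 ± 0.21 and -0.60 ± 0.06. Klf4, a rise, stood at 369 and 519 against 32.0 to 51.6 (median 39.8), whereas Klf2 and Klf15 fell, and the 14 Kruppel-like factor genes divided into 5 rises and 6 falls. The fall of Klf2 was not called without KCl A (adjusted p = 0.11).

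Among genes of the calcium pathway to the nucleus, rises were also more frequent than falls. Of 20 CREB, CRTC and SIK genes, 9 rose and 3 fell. Sik1, a kinase that holds CREB coactivators in the cytoplasm, stood at 3202 and 3848 normalised counts against 448 to 513 (median 482), and Crem, which also yields a repressor of CREB targets, at 605 and 449 against 105 to 144 (median 116). Both groups were well apart for both genes (log2 differences 2.86 ± 0.08 and 2.13 ± 0.13). Creb1 itself fell 1.17-fold and its coactivator gene Crtc3 1.42-fold. Srf rose 2.13-fold and Mef2d 1.75-fold, and of 9 genes of the Mef2, Elk and Srf list 4 rose and 1 fell. In the list of 28 CaM kinase, calcineurin and NFAT genes 18 rose and 2 fell, led by Nfatc2, at 104 and 169 against 25.9 to 44.6 (median 36.0), and by Nfat5, an NFAT-related factor known for its role under raised osmolarity, at 1909 and 2094 against 875 to 1207 (median 1058).

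Clock genes responded in both directions, with 11 of 21 higher and 5 lower. Per1, a period gene with a known response to CREB, stood at 1698 and 1304 normalised counts against 286 to 341 (median 312). Bhlhe41, a repressor within the clock, fell to 21 and 15.0 from 59.4 to 73.5 (median 66.0). Nr1d1 rose 2.19-fold, and Dbp, an output gene of the clock, fell 1.56-fold. Without KCl A the fall of Dbp was not called (adjusted p = 0.11). Nr1d1 overlaps Thra and Dbp overlaps Sphk2 on the other strand, so their reads carry the same doubt as those of Nab2.

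Genes that end MAP kinase signals rose as a group: 9 of 10 MAP kinase phosphatase genes were higher and 1 was lower, with a median log2 difference of 0.90. Dusp6, which acts on ERK, stood at 877 and 777 normalised counts against 201 to 288 (median 211). Dusp1 stood at 767 and 566 against 255 to 281 (median 266). The exception, Dusp2, was at 18.5 and 28.9 against 31.8 to 44.6 (median 41.1), and this fall was not called without KCl A (adjusted p = 0.4). The Sprouty, Spred and SOCS genes, which act on receptor signalling, gave 5 rises and 6 falls among 18. Spry2 rose 1.97-fold and Lrig2 fell 1.84-fold. Of 15 RGS genes, regulators of G-protein signalling, 6 rose and 6 fell, with Rgs16 and Rgs2 among the former and Rgs19 among the latter. Without KCl A the rises in these lists were 3 of 18 and 3 of 15.

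Small GTPases of the RGK group, which bind calcium channel subunits, included Rem2, at 377 and 253 normalised counts against 78.8 to 147 (median 109), and Gem, at 106 and 78.1 against 29.7 to 50.5 (median 33.8). Both were above every control. Of the 12 genes in that list 5 rose and 2 fell. Among 21 Gadd45 and stress-response genes 13 rose and 3 fell. Ppp1r15a, whose product removes the phosphate that slows translation initiation, stood at 1147 and 1292 against 146 to 169 (median 160.1), and Gadd45b at 264 and 242 against 25.1 to 49.8 (median 31.8). Chac1, a target of ATF4, fell to 30.9 and 16 from 78.8 to 98.7 (median 83.5) while Atf4 itself rose 2.99-fold.

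Of 22 genes for synaptic effectors, 13 rose and 2 fell. Homer1, whose short form uncouples glutamate receptors from their scaffold, stood at 5433 and 4155 normalised counts against 843 to 962 (median 883). Arc, which governs AMPA receptor removal, was low in silent CNs at 25.1 to 39.4 (median 34.2) and reached 182 and 141 with KCl. Ptgs2, an inducible cyclooxygenase, stood at 35.8 and 38.5 against 0 to 2.40 (median 1.55). The groups did not overlap for any of the 3 genes. The adhesion gene Amigo3 fell, to 74.1 and 42.8 from 114 to 144 (median 126). Among the 11 neurotrophin and receptor genes, 5 rose and 1 fell, and the rises numbered 3 with either KCl library left out. Bdnf was at 619.9 and 356 normalised counts with KCl and at 38.5 to 65.1 (median 62.5) in the controls, so that the KCl libraries differed 1.74-fold from each other but the lower one lay 5.47-fold above the highest control.

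Genes for secreted peptides and the proteins that process them are known for their response to activity: 19 of 27 were higher and 2 lower, with a median log2 difference of 0.45. Without KCl A the rises fell in number to 10. Pcsk1, a convertase that cuts prohormones, stood at 478 and 262 normalised counts against 16.6 to 31.9 (median 20.1). Vgf, a granin-like precursor, stood at 2792 and 1526 against 251 to 481 (median 346), and Scg2, a granin, at 2558 and 1557 against 762 to 1062 (median 887). KCl A was above KCl B for each of these 3 genes, and both were above all controls. Inhba and Inhbb, which encode activin subunits, were the 2 that fell. Of 25 extracellular protease and matrix genes 11 rose, or 6 without KCl B, and none fell (0 by edgeR's test and 0 at an unadjusted p under 0.05).

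The prohormone genes are shown with their promoters because several carry the cAMP response element (CRE), the site to which CREB binds, in its full form TGACGTCA. This element was searched on both strands in the 250 bases before and 50 after each RefSeq start (GRCm38.p6). It was present in 549 of 27025 genes with a promoter in the table (2.03%). Of the 27 prohormone genes 22 had a promoter there, and 5 of these held it. Among the 10539 protein-coding genes tested here that had a promoter in the table, 376 held it (3.57%). The 5 were noticed after the promoters had been searched, and a match describes letters and no binding. The 150 bases before the start follow for these 5, and then for 3 genes of other lists that rose, Maff, Ppp1r15a and Dusp1, chosen after their values were seen, with the element in capitals. The element was not limited to rising genes. It was present in 19 of 299 genes with a promoter that rose 2-fold or more (6.35%) and in 26 of 587 that fell 2-fold or more (4.43%). A promoter was in the table for only 299 of 403 such rises and 587 of 724 such falls, so these shares are not compared. Among genes with a promoter that rose 4-fold or more the element was present in 3 of 100. Motifs named AP-1, EGR, SRE (CArG box) and E-box were searched in the same promoters. In those 100 genes they were present in 11, 5, 5 and 12, against 5.80%, 6.68%, 1.66% and 11.5% of the 10539. In the 22 prohormone genes they were present in 2, 2, 0 and 2.
Pcsk1: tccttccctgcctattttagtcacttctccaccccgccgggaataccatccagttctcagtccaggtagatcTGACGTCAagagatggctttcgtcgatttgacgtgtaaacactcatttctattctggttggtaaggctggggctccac
Scg2: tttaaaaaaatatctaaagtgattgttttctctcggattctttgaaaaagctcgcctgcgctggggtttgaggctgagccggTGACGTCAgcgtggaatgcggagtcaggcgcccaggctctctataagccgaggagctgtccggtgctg
Cartpt: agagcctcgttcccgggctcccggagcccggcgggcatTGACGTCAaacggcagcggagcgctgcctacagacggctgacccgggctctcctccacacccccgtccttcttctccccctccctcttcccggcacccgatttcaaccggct
Sst: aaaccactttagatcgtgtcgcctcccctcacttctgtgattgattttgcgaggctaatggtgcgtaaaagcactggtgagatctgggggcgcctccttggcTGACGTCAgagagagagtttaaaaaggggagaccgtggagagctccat
Chgb: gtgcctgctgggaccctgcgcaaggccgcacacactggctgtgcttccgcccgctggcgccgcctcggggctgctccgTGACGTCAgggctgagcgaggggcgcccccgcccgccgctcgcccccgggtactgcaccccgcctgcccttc
Maff: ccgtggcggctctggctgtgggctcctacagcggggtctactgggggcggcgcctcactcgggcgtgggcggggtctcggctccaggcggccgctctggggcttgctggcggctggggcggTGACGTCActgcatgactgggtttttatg
Ppp1r15a: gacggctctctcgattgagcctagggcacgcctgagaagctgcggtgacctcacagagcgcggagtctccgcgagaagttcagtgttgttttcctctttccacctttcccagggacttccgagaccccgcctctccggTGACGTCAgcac
Dusp1: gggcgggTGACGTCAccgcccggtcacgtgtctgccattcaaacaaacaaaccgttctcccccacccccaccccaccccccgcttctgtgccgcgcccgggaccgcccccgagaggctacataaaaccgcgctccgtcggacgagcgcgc
The first letter of the element lay 78 bases before the start in Pcsk1, 68 in Scg2, 112 in Cartpt, 48 in Sst and 72 in Chgb. The distance was 29 in Maff, 12 in Ppp1r15a and 143 in Dusp1. Positions and strands are chr13:75089707-75089856 (plus) for Pcsk1, chr1:79440027-79440176 (minus) for Scg2, chr13:99900684-99900833 (minus) for Cartpt, chr16:23890845-23890994 (minus) for Sst, chr2:132781492-132781641 (plus) for Chgb, chr15:79347370-79347519 (plus) for Maff, chr7:45526269-45526418 (minus) for Ppp1r15a and chr17:26508473-26508622 (minus) for Dusp1. The RNA of these genes differed widely at 1 h. Pcsk1 had a log2 difference of 4.02 ± 0.24, Cartpt of 1.48 ± 0.45, Scg2 of 1.16 ± 0.16 and Sst, which encodes somatostatin, of 0.82 ± 0.18, all called. Cartpt was at 22.2 and 12.8 normalised counts against 1.20 to 10.5 (median 7.03) and was not called without KCl A (adjusted p = 0.16). Chgb was at 1920.1 and 1709.7 against 1244 to 1801 (median 1463), groups that overlapped (adjusted p = 0.3).

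Ion channels and receptors changed by smaller amounts. Of 70 potassium channel genes 23 rose and 14 fell, 3 of each by 2-fold or more. Without KCl A the rises numbered 13. Kcnj14, an inward rectifier, stood at 46.9 and 39.6 normalised counts against 5.87 to 13.1 (median 10.3), and Kcns2, a silent subunit of voltage-gated channels, at 29.6 and 29.9 against 72.6 to 101 (median 83.0), a rise and a fall with groups well apart. Glutamate receptor genes gave 13 rises and 3 falls among 26, and 8 rises without KCl A. Grin2c, an NMDA receptor subunit gene, rose 2.38-fold from 13.7 to 26.4 (median 17.4), whereas Grin2b, the main subunit gene in immature cortex, fell 1.46-fold from 4083 to 5732 (median 4501). Of 15 GABA receptor genes 3 rose and 1 fell. Voltage-gated calcium channel genes gave 8 rises and 4 falls among 21, none of them 2-fold, with 4 rises without KCl A and 5 without KCl B, and sodium channel genes 5 and 3 among 10.

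**Figure D2:**
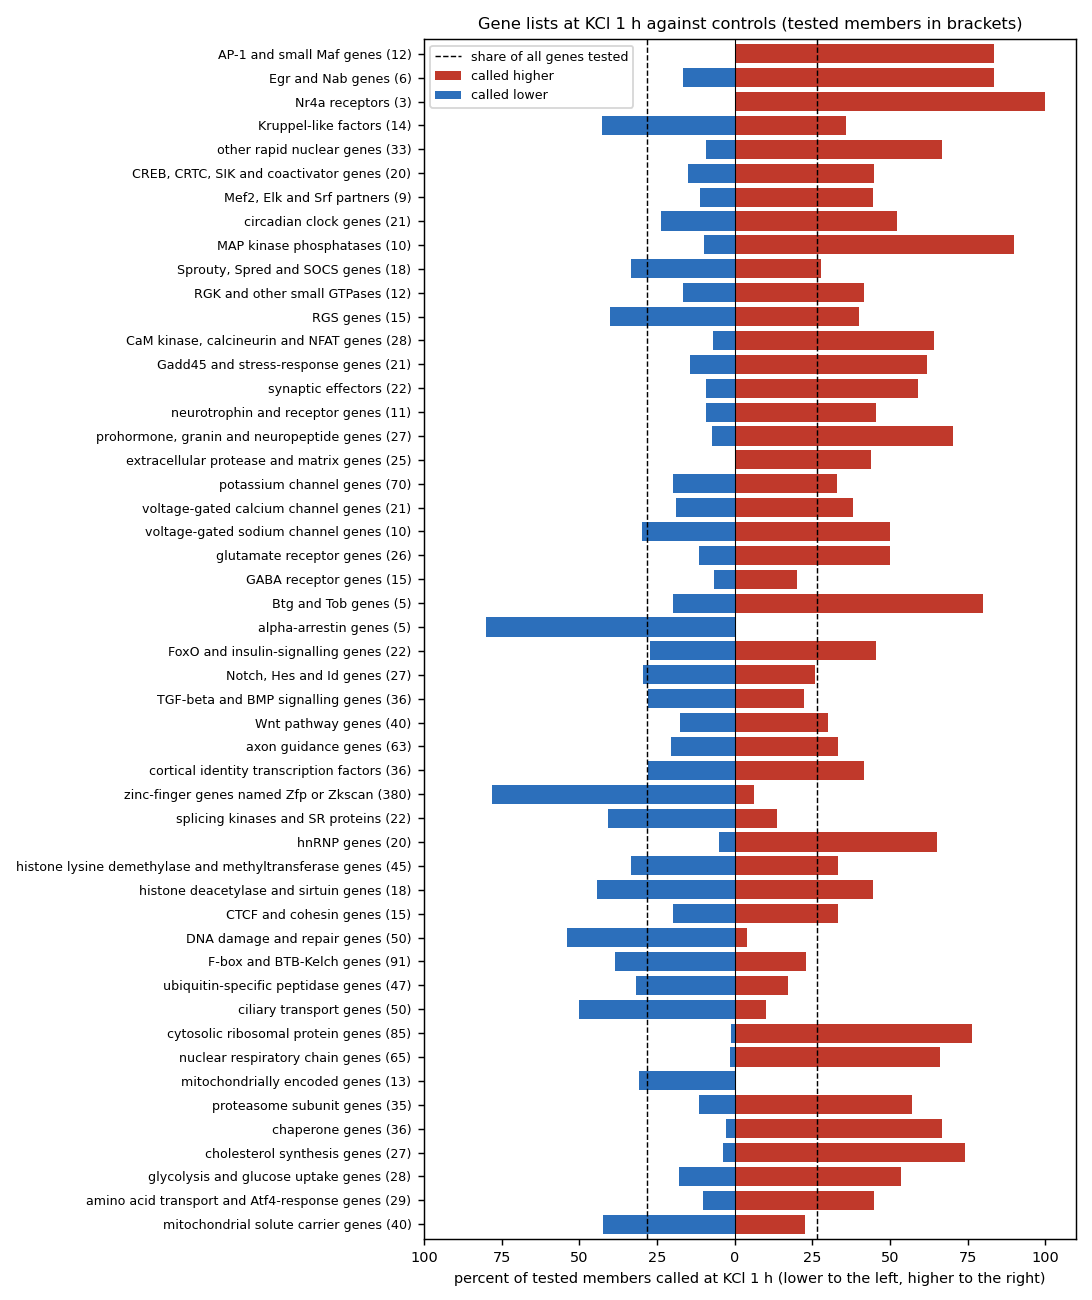
Percent of the tested members of 50 gene lists called lower (left) or higher (right) at KCl 1 h against controls, with the number tested in brackets. Dashed lines mark the shares over all genes tested, 28.2% lower and 26.5% higher. MAP kinase phosphatase, prohormone and ribosomal protein genes reach far past the right line, and zinc-finger, alpha-arrestin, DNA repair and ciliary genes past the left one.

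The plot of the gene lists sets each list against the background. Among the lists in which falls outnumbered rises are those of alpha-arrestins, zinc-finger genes, DNA repair genes, ciliary genes, splicing regulators, F-box genes, ubiquitin-specific peptidases and mitochondrial carriers. In that order 80.0, 78.2, 54.0, 50.0, 40.9, 38.5, 31.9 and 42.5% were called lower, against 28.2% of all genes. Ubiquitin-specific peptidases thus lay near the background. Falls also outnumbered rises among Kruppel-like factors (42.9% lower), Sprouty, Spred and SOCS genes (33.3%) and mitochondrially encoded genes (30.8%). Lists on patterning, such as Wnt (12 rises and 7 falls among 40), TGF-beta and BMP (8 and 10 among 36), Notch (7 and 8 among 27) and axon guidance (21 and 13 among 63), lay close to the background. The rises numbered 7 for Wnt genes without KCl B and 4 for Notch genes without either KCl library, and the falls 7 for axon guidance genes without KCl A. Among 36 transcription factors of cortical identity 15 rose and 10 fell. Hes5, a Notch target, fell to 149 and 92.0 from 218 to 298 (median 239) while Hes1 rose to 162 and 242 from 87.7 to 135 (median 105). Smad7, an inhibitor of TGF-beta signalling, rose 2.07-fold, and Wnt7a fell 1.98-fold.

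Of 5 alpha-arrestin genes tested, 0 rose and 4 fell, with a median log2 difference of -1.20. By edgeR's test 0 rose, and 0 were higher at an unadjusted p under 0.05. Txnip (chr3:96557957-96561883), which binds thioredoxin and restrains glucose uptake, fell to 61.7 and 68.4 normalised counts from 519 to 663 (median 623). Arrdc3 fell to 694 and 746 from 3113 to 3738 (median 3400.2), and Arrdc4 to 342 and 395 from 779 to 907 (median 846). No KCl value reached the lowest control. Pik3ip1, an inhibitor of PI3 kinase, fell 2.43-fold and Foxo1 1.62-fold, while Irs2, an adaptor of insulin signalling, rose 2.45-fold. Over the 22 FoxO and insulin-signalling genes 10 rose and 6 fell. The antiproliferative gene Btg2 fell to 233 and 174 from 576 to 795 (median 692), and the other 4 genes of the Btg and Tob list rose, Tob2 the most, to 1222 and 1470.2 from 359 to 425 (median 396).

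The list with the most falls was that of zinc-finger genes, most of which encode DNA-binding repressors with arrays of C2H2 fingers. Of 380 genes tested whose symbols begin with Zfp, Zkscan or Zscan, 297 fell, 78.2% against 28.2% of all genes, and 23 rose. The median log2 difference was -0.81, and 164 fell by 2-fold or more. As a share of all reads these genes took 0.903 and 0.929% with KCl against 1.39 to 1.45% in the controls (exact permutation p = 0.0357, two-sided, the smallest possible). The list was chosen with earlier results of these data known, so nothing is read from this p-value. Zfp712 (chr13:67038596-67061170) fell to 13.6 and 10.7 normalised counts from 167 to 202 (median 183), and Zfp930 to 8.64 and 8.55 from 73.1 to 97.5 (median 79.2). Zfp160, more abundant, fell to 109.9 and 87.7 from 628 to 722 (median 661). Both KCl libraries lay far below the lowest control for each of these genes. Jrk, a DNA-binding gene outside the list, fell to 16.1 and 34.2 from 189 to 239.8 (median 209). The 2 rises of 2-fold or more were Zfp36, which binds RNA and not DNA, at 95.1 and 106 against 14.1 to 32.9 (median 27.5), and Zfp184. Zinc-finger genes lie in clusters of close copies, so reads of single members can be shared or lost in mapping and their single values are uncertain.

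**Figure D3:**
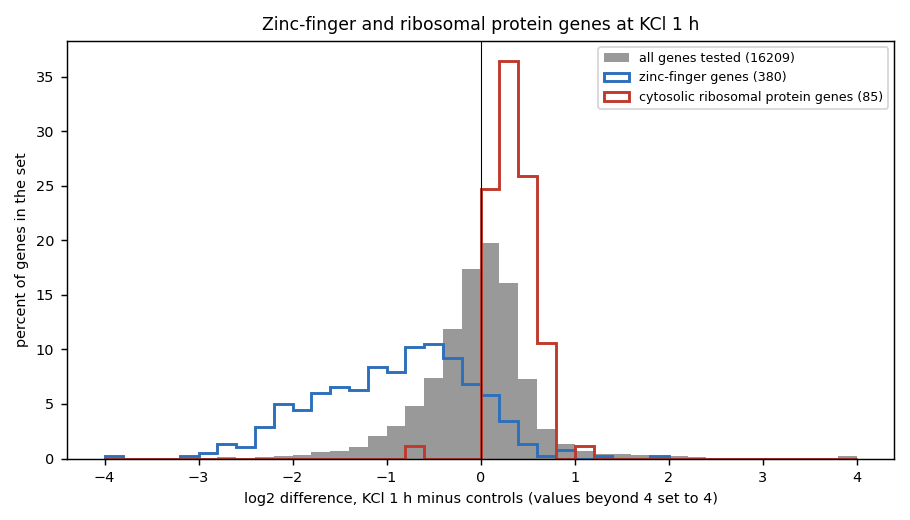
Distribution of the log2 difference between KCl 1 h and controls, as percent of the genes in each set, for all 16209 genes tested (grey), 380 zinc-finger genes (blue) and 85 cytosolic ribosomal protein genes (red). The blue outline lies mostly left of 0, with a median of -0.81, and the red one mostly right of it, with a median of 0.35.

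In the distributions of log2 differences, zinc-finger genes lay to the left of the other genes, with members from -3.82 to 1.97 on the log2 scale, and ribosomal protein genes lay in a narrow range to the right. On the 3 chromosomes with the most members, 71 of 91 zinc-finger genes on chromosome 7 fell, 38 of 45 on chromosome 17 and 31 of 38 on chromosome 13. Protein-coding genes that fell by 2-fold or more numbered 724, of which 162 were zinc-finger genes. They had a median of 5 exons in their longest transcript by exon number and a gene length of 15.3 kb, against 9 exons and 25.6 kb over all 13450 protein-coding genes tested. Without the zinc-finger genes the 562 others had 6 exons and 14.8 kb. Genes that rose by 2-fold or more had a median length of 12.5 kb and 7 exons. Their median control level was 22.5 normalised counts against 360 for all. Weakly expressed genes could pass the filter on low values through stimulated libraries, so this low control level was partly set by the filter. Length and exon number come from the same selected genes, so nothing is read from these values as traits of rising genes.

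Falls also outnumbered rises in lists of DNA repair, ciliary and splicing genes. Of 50 DNA damage and repair genes 27 fell and 2 rose, with a median log2 difference of -0.32. Palb2, which links the BRCA proteins, fell to 12.3 and 12.8 normalised counts from 47.0 to 72.4 (median 56.2), and Xrcc2, a gene of homologous recombination, to 70.4 and 74.8 from 171 to 224 (median 201). Of 50 ciliary transport genes 25 fell and 5 rose, and Bbs5, a subunit of the BBSome, fell to 35.8 and 47.0 from 108 to 142 (median 125). The ciliary rises numbered 3 without KCl A or control 6 h A and 1 without KCl B. Of 22 splicing kinase and SR protein genes 9 fell and 3 rose, among them Srsf5, which fell 1.72-fold, and Clk2, which fell 1.68-fold. The hnRNP genes, also for RNA-binding proteins, went the other way, with 13 of 20 higher and 1 lower, and 7 higher without KCl A. Rsrp1, Tia1 and Wsb1 were among the largest losses in counts. Tia1, an RNA-binding protein of stress granules, fell to 1697 and 1764 from 4861 to 5292 (median 5092).

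Chromatin enzymes did not move as a group: of 45 histone lysine demethylase and methyltransferase genes 15 rose and 15 fell, and of 18 deacetylase and sirtuin genes 8 rose and 8 fell. Hdac5, a deacetylase that leaves the nucleus upon calcium entry, rose to 2819 and 2275 normalised counts from 936 to 1092 (median 1019.7), and Hdac10 fell to 153 and 127 from 272 to 352 (median 298). Ubiquitin genes spread widely. Of 91 F-box and Kelch genes 35 fell and 21 rose, with Fbxo33 up to 1194 and 1138 from 248 to 274 (median 265) and Fbxo46 down to 91.4 and 80.2 from 278 to 355 (median 316). Among 47 ubiquitin-specific peptidase genes 15 fell and 8 rose, or 5 without KCl A. CTCF and cohesin genes changed by at most 1.35-fold, with 5 of 15 higher and 3 lower, and 2 higher without KCl B or 3 without control 1 h A.

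Rises were frequent and mostly small in lists of abundant cellular machinery. Of 85 cytosolic ribosomal protein genes 65 rose and 1 fell, with a median log2 difference of 0.35, and 19 were not called. They took 0.761 and 0.764% of reads with KCl against 0.62 to 0.69% in the controls (exact permutation p = 0.0357, two-sided, the smallest possible). This list too was chosen with earlier results known, so nothing is read from the p-value. Ribosomal protein genes have many pseudogenes, and reads could be split among these copies. Of 65 nuclear respiratory chain genes 43 rose and 1 fell, and 27 rose when only the 1 h controls were used. Of the 13 mitochondrially encoded genes 4 were lower, 30.8% against 28.2% of all genes, and 0 were higher, also 0 by edgeR's test (0 at an unadjusted p under 0.05). All genes whose symbols begin with mt-, a set not limited to these 13, took 3.25 and 3.29% of reads with KCl and 3.52 to 4.40% in the controls. mt-Nd6 fell to 7669 and 7117 normalised counts from 9060.2 to 11693 (median 11030.4), and mt-Nd5, another of the 4, was not called without KCl B (adjusted p = 0.14), while mt-Co1 was at 104532 and 106858 against 94595 to 122058 (median 113200.0), groups that overlapped. mt-Nd6 and mt-Nd5 overlap on opposite strands, and the libraries were made from polyadenylated RNA.

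Of 36 chaperone genes 24 rose and 1 fell, and of 35 proteasome genes 20 rose and 4 fell, with 13 rises without KCl A. Hsp90ab1, a constitutive chaperone and one of the largest gains in counts, rose to 28967 and 28534 normalised counts from 19025 to 20979 (median 19509). Dnajb5 was the 1 chaperone gene that fell, 2.19-fold. Among the largest losses in counts were 2 tubulin genes. Tubb3 fell to 11523 and 9795 from 14838 to 17369.6 (median 15685), and Tubb5 to 24849 and 22139.9 from 25539 to 28558 (median 27046). The fall of Tubb5 was not called without KCl B (adjusted p = 0.18).

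Sterol genes rose from high control levels. Of 27 genes of cholesterol synthesis, uptake and its control 20 rose and 1 fell, with a median log2 difference of 0.59. Insig1, a brake on sterol synthesis, stood at 6301 and 5853 normalised counts against 2001 to 2177 (median 2120.5), and the groups were well apart. Scd2, a fatty acid desaturase, had the largest gain in counts of all genes, to 49417 and 53308 from 35574 to 41214 (median 37704), a 1.34-fold change.

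In the glycolysis list 15 of 28 rose and 5 fell, or 3 without KCl B, with Slc2a3, the neuronal glucose transporter, at 3855 and 3011 normalised counts against 1223 to 1481 (median 1405). In the list of amino acid transport and ATF4 targets 13 of 29 rose and 3 fell, and 6 rose without KCl A. Slc38a2, an amino acid transporter also known to respond to raised osmolarity, stood at 8768 and 9506 against 2227 to 2524 (median 2335). Mitochondrial carriers gave 17 falls and 9 rises among 40. The phosphate carrier gene Slc25a3 rose to 5813 and 5337 from 2814 to 3010.0 (median 2933), and the folate carrier gene Slc25a32 fell to 42.0 and 26.7 from 116 to 137 (median 132).

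A set of genes that silent CNs hardly express appeared with KCl. Among protein-coding genes tested with a control mean under 10, 53 rose by 4-fold or more, 38 rose by less and 64 were not called higher. Such genes were tested only if their mean over the 18 libraries reached 10. Stimulated libraries had to lift that mean, so a rise was partly set by the filter and these counts are no finding. Besides immediate early genes such as Fosb, Egr4 and Ptgs2, the 53 include genes known from other tissues. Ampd1 (chr3:103074014-103099720), the AMP deaminase of muscle, was at 85.2 and 114 normalised counts with KCl and at 0 to 1.04 (median 0) in the controls. Bhlha15 (chr5:144190286-144194441), a factor of secretory cells, was at 91.4 and 207 against 0 to 2.3 (median 1.09), and Slc2a2, the glucose transporter of liver and pancreas, at 58.0 and 98.4 against 0 to 2.07 (median 1.15). Both KCl libraries showed each of these genes and no control did above 3 counts.

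The position of expressed genes around the 53 is described next. The 53 passed the filter only through stimulated libraries and were chosen for their rise. Most of the 4648 low genes they are set against were not tested, so nothing is read from the difference in shares. An expressed gene is one with a control mean of at least 100, and distances are from the end of that gene to the start of the gene in question in the GENCODE M21 annotation. For 25 of the 53 (47.2%) an expressed gene on the same strand ended within 10 kb before the start, or overlapped it. The same held for 504 of all 4648 protein-coding genes of the table with a control mean under 10 (10.8%). It held for 13 of the 38 that rose by less than 4-fold (34.2%) and for 4 of the 64 not called higher (6.25%). Low genes were tested only where their mean over all 18 libraries reached 10, so most low genes that did not rise are among the 4648 and not the 64. On the same strand past the end, an expressed gene lay within 10 kb of 4 of the 53 (7.55%) and of 8.69% of the 4648. On the other strand past the end, where an expressed gene would also end facing the gene, the shares were 39.6% and 17.8%, and before the start 7.55% and 10.5%.

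**Figure D4:**
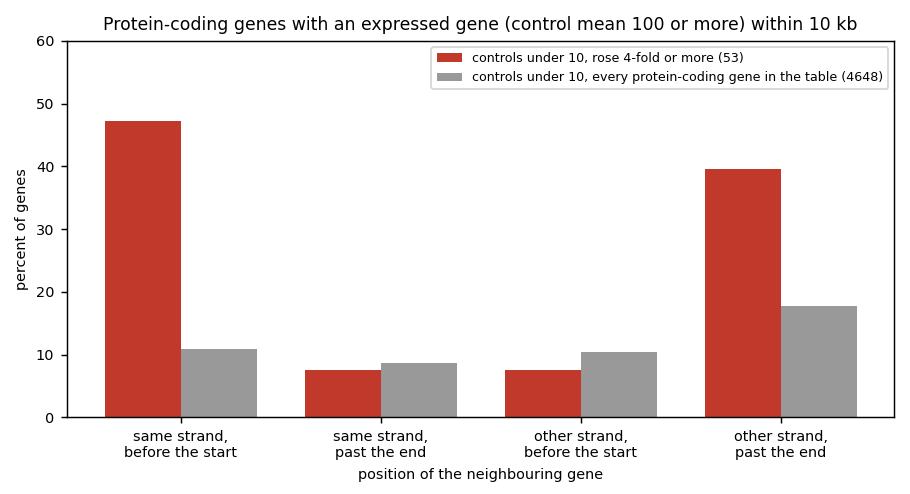
Percent of protein-coding genes with an expressed gene (control mean of 100 or more normalised counts) within 10 kb, by strand and side. Red bars are the 53 genes with a control mean under 10 that rose 4-fold or more after 1 h of KCl, and grey bars all 4648 protein-coding genes with a control mean under 10. The red bars exceed the grey ones on the 2 sides where the neighbour's end faces the gene. The 53 were chosen for their rise and passed the filter only through stimulated libraries, so this difference is no finding.

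In the plot of neighbour position the shares of the 53 were the higher ones on the sides where the neighbouring gene ends. Ampd1 starts 6.10 kb past the end of Nras, Bhlha15 2.08 kb past that of Lmtk2, Cldn15 0.382 kb past that of Fis1 and Nmrk2 2.46 kb past that of Atcay. The neighbours themselves had log2 differences of -0.49 (Nras), 0.43 (Lmtk2), -0.06 (Fis1, not called) and 0.26 (Atcay, not called without KCl A, adjusted p = 0.19). For the immediate early genes Fosb, Egr4 and Ptgs2 the nearest such neighbour was 46.0, 385 and 3198 kb away. Distances were also long for some other genes of the 53, such as Slc2a2 (22.0 kb), Ankk1 (75.1 kb) and Irf4 (4256 kb). Rrad, of the RGK group, started 8.51 kb past the end of Ciao2b, and the median over the 53 was 11.8 kb. Whether reads of the 53 genes came from their own promoters was not tested, since the table holds 1 value per gene. Among protein-coding genes that rose 4-fold from a control mean of 10 or more, 27 of 79 (34.2%) had such a neighbour, against 15.6% of all protein-coding genes tested with a control mean of 10 or more. Among genes that fell 2-fold or more it was 75 of 724 (10.4%).

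The response to KCl was compared with that to BDNF at the same time without use of the controls. KCl libraries were higher than BDNF libraries for 2950 genes (18.2% of those tested) and lower for 3986 (24.6%). The Nr4a genes were higher with KCl in 3 of 3 cases, and the Egr and Nab genes lower in 6 of 6. Egr1 stood at 10536 ± 46.3 normalised counts (mean ± SD, n = 2) with BDNF against 1714 ± 175 with KCl, and Nr4a1 at 680.3 ± 33.1 against 7063 ± 969. Arc differed the most among the synaptic effectors, at 6359 ± 163 with BDNF and 161 ± 28.5 with KCl (log2 difference, KCl minus BDNF, -5.30, adjusted p = 6e-15). Bdnf itself was higher with KCl (488 ± 187 against 165 ± 9.60), and Vgf was higher with BDNF (17580.0 ± 561 against 2159 ± 895). Fos (log2 difference 1.67), Npas4 (3.29) and Pcsk1 (2.23) were higher with KCl, and Homer1 (-1.22), Dusp6 (-1.02) and Rem2 (-1.21) were higher with BDNF.

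Zinc-finger genes were lower with KCl than with BDNF in 241 of 380 cases and higher in 32, with a median difference of -0.54. Zfp160 was at 619 ± 31.7 normalised counts with BDNF and 98.8 ± 15.7 with KCl. Of the 53 genes that rose with KCl from a control mean under 10, 24 were also called higher with BDNF at 1 h than in the controls. The share of all genes tested that was called higher with BDNF is not given here. The 53 passed the filter on low values only through stimulated libraries, so nothing is read from this count. They were also chosen for their KCl values, so nothing is read from their difference between KCl and BDNF. Cldn15 was at 23.6 ± 9.63 with BDNF, whereas Ampd1 was listed at 0 in both BDNF libraries and Bhlha15 at 1.14 ± 1.62. Sterol genes gave 5 higher and 8 lower among 27, and Insig1 was at 5037 ± 192 with BDNF and 6077 ± 317 with KCl (adjusted p = 0.0033). Sprouty, Spred and SOCS genes were lower with KCl in 13 of 18 cases.

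**Figure D5:**
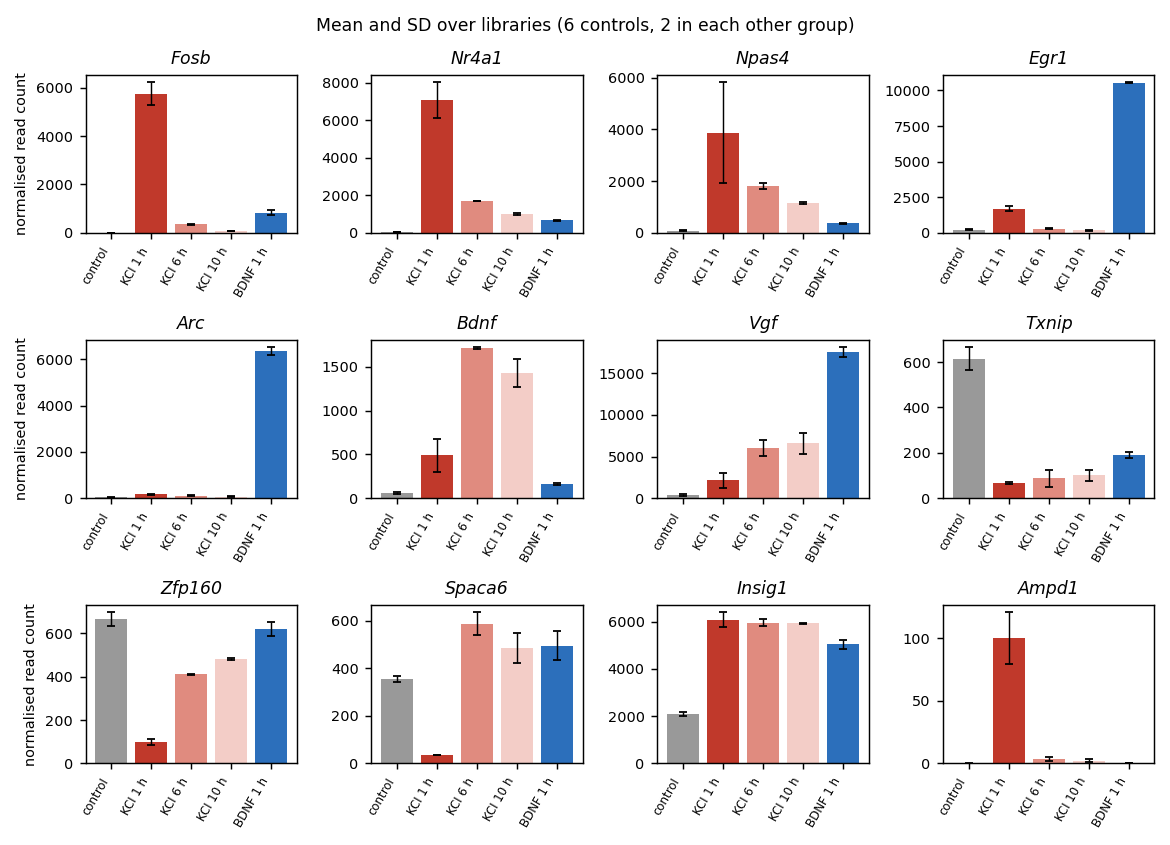
Mean normalised read count with SD for 12 genes in the 6 controls and in 2 libraries each of KCl for 1, 6 and 10 h and BDNF for 1 h; each panel has its own axis from 0. Fosb, Nr4a1 and Ampd1 are highest at KCl 1 h, Egr1, Arc and Vgf with BDNF, and Spaca6 and Zfp160 are lowest at KCl 1 h.

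Values at 6 h of KCl give levels at a later time in separate libraries. The KCl 6 h libraries differed from each other more than any other RNA pair. Their chi-square per degree of freedom was 36.4, against 2.33 to 9.77 in the other pairs. Between KCl 1 h and KCl 6 h, 5006 genes were higher at 6 h (30.9%) and 4650 lower (28.7%). Fosb was at 352 ± 11.3 normalised counts at 6 h and 85.3 ± 13.4 at 10 h, against 5755 ± 472 at 1 h, and Fos at 1768 ± 57.9 and 972 ± 33.2 against 5508 ± 331. Of the 12 AP-1 and small Maf genes 7 were lower at 6 h than at 1 h and 1 higher, and all 3 Nr4a genes were lower. Many genes for secreted proteins were higher still: 17 of 27 prohormone genes were higher at 6 h and 3 lower, and Bdnf reached 1713 ± 12.4 at 6 h from 488 ± 187 at 1 h (log2 difference 1.86). Cartpt reached 98.9 ± 27.2 from 17.5 ± 6.64. Glutamate receptor genes were lower at 6 h in 17 of 26 cases and chaperone genes in 24 of 36.

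Zinc-finger genes were higher at 6 h than at 1 h in 240 of 380 cases and lower in 54, with a median difference of 0.54. Zfp712 was at 81.2 ± 1.92 normalised counts at 6 h and 134 ± 14.2 at 10 h, against 12.1 ± 2.04 at 1 h and 184 ± 15.4 in the controls. Spaca6 (chr17:17827158-17843009), known for its role in sperm, fell to 35.8 and 35.3 at 1 h from 338 to 372 (median 353) and was at 587 ± 46.6 at 6 h. Cox17, a copper chaperone for cytochrome oxidase, fell to 13.6 and 12.8 from 159 to 184 (median 173) and was at 113 ± 7.02 at 6 h. Txnip and Arrdc3 stayed low, at 86.7 ± 37.8 and 632 ± 72.8, and the 6 h values of Txnip did not differ from those at 1 h by the test (log2 difference 0.34 ± 0.20, adjusted p = 0.16). Ampd1 and Bhlha15 had dropped to 3.62 ± 1.84 and 8.33 ± 6.22.

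Chromatin accessibility was measured by ATAC-seq in libraries of the same groups. Test, read depth and spread between libraries differ from those of RNA, so the share of peaks called is not set against that of genes. Of 56383 peaks tested, 2985 gained accessibility (5.29%) and 1720 were closing (3.05%) at KCl 1 h against the 6 controls (edgeR, adjusted p below 0.1). These counts rest on both KCl libraries: with either left out, 1235 or 1618 peaks were called in all. A peak was counted at a promoter when it overlapped the 1000 bp before to 100 bp after a transcription start. Genes that rose by 2-fold or more had such a peak in 208 of 403 cases, and a gained one in 26 (12.5% of the 208), while 13 had a closing one (6.25%). Over all 11951 protein-coding genes tested with a promoter peak the shares were 5.84% gained and 4.52% closing. Genes that fell by 2-fold or more had a closing promoter peak in 33 of 646 cases (5.11%), against 4.52% over all. Zinc-finger genes had one in 25 of 347 (7.20%) and a gained one in 5 (1.44%).

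For single genes, RNA and promoter accessibility moved together at some promoters and not at others. Nr4a1 had a peak at each of 2 starts. That at chr15:101266257-101267037 was at 131 and 129 scaled counts with KCl and 48.8 ± 9.62 (SD, n = 6) in the controls (log2 difference 1.41 ± 0.19, adjusted p = 4.8e-08), and that at chr15:101253964-101254522 had a log2 difference of 0.37 (adjusted p = 0.48). The Homer1 peak at chr13:93303343-93304646 had a log2 difference of 0.36 (adjusted p = 0.0043) and the Nr4a3 peak at chr4:48044563-48045387 one of 0.53 (adjusted p = 0.00087). The Fosb peak at chr7:19310003-19310487 was at 95.1 and 94.6 with KCl and 103 ± 10.8 in the controls (adjusted p = 0.73), while Fosb RNA was 736-fold higher. The Txnip peak at chr3:96557445-96558142 was at 139 and 134 against 136 ± 25.7. The Zfp712 peak at chr13:67060696-67061418 gained accessibility, from 174 ± 13.4 to 234 and 297, as its RNA fell 14.1-fold.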

How the data were processed

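Libraries were made from polyadenylated RNA and sequenced as single-end 75 bp reads. Per the labels and the study's methods, the authors aligned reads with TopHat2 to mm10 and divided gene counts by DESeq2 size factors. The deposited RNA values are this signal, a normalised read count per gene. The sources used here name neither the counting program nor whether strand was used. The deposited ATAC-seq values are counts of reads per peak. The authors' own tables of fold changes and adjusted p-values were not used.

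From the RNA values, log2(value + 1) was tested with limma 3.58.1 (R 4.3.3), with all 18 libraries in 1 fit. Genes with a mean under 10 were left out, p-values were adjusted by Benjamini-Hochberg, and the threshold was 0.1. The study's text calls libraries A and B biological replicates; whether they came from separate dissections is not said, so p-values measure the spread between these libraries. 100% of values gave whole reads within 0.01, and these were tested with edgeR 4.0.16, which called 8797 genes, and DESeq2 1.42.0. Peak counts were tested with edgeR. The tests were also run on simulated data. Gene names came from GENCODE M21 for 26162 of 26709 genes. TPM was computed from normalised counts and exon length.

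The gene lists, markers and naming rule were chosen with earlier results of these data known. Genes named are those with the 12 largest rises and falls among protein-coding genes with a mean of 50 or more in the higher group and groups that did not overlap (predicted genes left out), the 10 largest gains and losses in counts, and up to 4 at each end of each list, or were needed for a neighbour, overlap, marker or promoter. Some genes that this rule names are not reported here. Letters A and B were not taken to pair libraries, since same-letter deviations correlated at over 0.1 in 13 of 36 pairs of groups and ran from -0.31 to 0.42.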

Additional observations from a re-analysis of the deposited data

Results flagged for a closer look

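For 6 of the 123 genes named, 1 control library stood apart from the other 5, where chance gives about 1 in 20. The highest control was 1.04 normalised counts for Ampd1 (control 6 h B), 143.7 for Crem (control 1 h B) and 288.3 for Dusp6 (control 6 h B). The lowest was 38.5 for Bdnf, 519 for Txnip and 9060.2 for mt-Nd6, each in control 10 h A. The KCl values lay outside the range of the controls for all 6 genes.

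Some genes differed from the controls in opposite directions at 1 h and 6 h of KCl, by a test of KCl 6 h against KCl 1 h (limma). Jun was higher than the controls at 1 h and lower at 6 h, with a log2 difference of -0.93 between the times. The other 12 were lower at 1 h and higher at 6 h. The difference was 4.01 for Spaca6, 3.31 for Chac1, 2.88 for Kcns2, 2.07 for Bbs5, 1.72 for Xrcc2, 1.57 for Klf15, 1.32 for Srsf5, 1.31 for Inhba, 1.18 for Rgs19, 1.14 for Clk2, 0.87 for Inhbb and 0.82 for Sphk2. Among the 123 genes named, 46 were higher and 44 lower at 6 h than at 1 h, and 39 were higher and 62 lower with KCl than with BDNF at 1 h. Over all genes tested the shares were 30.9% and 28.7% between the times, and 18.2% and 24.6% between KCl and BDNF. Many of the genes named were chosen for their KCl 1 h values, which both comparisons use again, so nothing is read from these counts.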

How the results depend on the processing

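The count of 8863 genes differing at KCl 1 h was 8959 with TMM scaling, 8797 with edgeR, 8113 with DESeq2, 6836 with the 1 h controls only and 7026 to 8906 with single libraries left out. At an adjusted p below 0.01 it was 5906, of which 2666 were higher, and 4143 genes differed between KCl and BDNF. Rises of 2-fold or more numbered 1611 with no filter and 185 with a mean of 50 or more. Peaks called numbered 995 at an adjusted p below 0.01 (751 gained and 244 closing) and 2340 with a mean of 50 or more (1359 and 981), and closing peaks 2628 with TMM scaling. With single libraries left out there were 1235 to 4493 peaks, 799 to 2942 gained and 374 to 1665 closing. With a replicate block 9052 genes were called at KCl 1 h, 7107 between KCl and BDNF and 9822 between KCl times. Same-letter deviations of KCl 1 h correlated at 0.27, 0.28 and -0.15 with those of the 1, 6 and 10 h controls, so the letters pair some groups at most.

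Of 2198 values for the 123 genes named, 2187 kept their direction and side of the threshold, 10 lost the call, 1 gained it and 0 reversed. Dusp2 and mt-Nd5 were not called with the 1 h controls only, nor mt-Nd5 without KCl B. Chgb was called when only the 8 libraries were fitted. With 2 KCl libraries, the spread within the group is poorly known and limits small differences.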

Other observations

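Genes that do not encode proteins also differed at KCl 1 h. Of 1560 processed pseudogenes tested, 12 rose by 2-fold or more and 658 by less, while 15 fell by 2-fold or more and 77 by less. Of 251 lincRNA genes 32 rose and 102 fell, 45 of the latter by 2-fold or more. Of 255 antisense genes 36 rose and 98 fell, 40 by 2-fold or more. Reads of pseudogenes can come from their parent genes, and those of antisense genes from their partners on the other strand. Markers of mural cells and fibroblasts summed to 5147 and 5522 normalised counts with KCl against 3918 to 4923 in the controls, and 3 of 7 were called higher. Markers of dividing cells gave 1 called higher and 3 lower among 10, and those of astrocytes and radial glia 2 and 1 among 11.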
